A study of Homo sapiens with 8 samples.

Results

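The subunits of the oxidative phosphorylation complexes were examined in HuH7 cells given Rk2 after oxygen-glucose deprivation, with mitochondrially encoded genes set against nuclear ones. Members were all genes of the count table whose symbols start with MT-ND, MT-CO, MT-CYB, MT-ATP, NDUFA, NDUFB, NDUFC, NDUFS, NDUFV, SDHA to SDHD, UQCR, COX4 to COX8 or ATP5, leaving out the assembly factors NDUFAF and SDHAF. A member also needed at least 10 counts in at least 4 libraries. This rule gave 97 of the 12910 genes tested, and no gene with these prefixes fell below the filter. Of the 97, 13 lie on mitochondrial DNA (MT- genes) and 84 are nuclear rows. Of these 84, 76 were counted as subunits and 8 are pseudogene, readthrough, paralog or renamed rows that were listed apart.

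Oxidative phosphorylation passes electrons through complexes I to IV of the inner mitochondrial membrane to oxygen, pumping protons that drive ATP synthase, which is complex V. Mitochondrial DNA encodes a few core subunits of complexes I, III, IV and V, while every subunit of complex II and most subunits of the others come from nuclear genes and are imported. MT- mRNAs are transcribed as long polycistronic precursors from both strands and are cut out at the tRNAs that lie between most of them. In liver cells these complexes are a site of damage when oxygen returns after ischemia.

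RNA-seq covered 8 libraries of HuH7, a human cell line derived from a hepatoma, of wildtype genotype. Every culture went through OGD/R, which was 6 h without glucose at 1% oxygen followed by 6 h of reoxygenation. During reoxygenation 4 libraries received DMSO (I/R+DMSO, n = 4) and 4 received the ginsenoside Rk2 at 20 µM (I/R+Rk2, n = 4). Every value therefore compares Rk2 with its vehicle after OGD/R, and no comparison with cells spared OGD/R was made. The labels do not say whether the 4 libraries of a group came from separate cultures, so p-values measure the spread between these libraries, which may be technical.

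Library totals ranged from 16357129 to 30277046 counts. All 10 hepatocyte-lineage markers checked were detected, and ALB, for serum albumin, had 38063 to 71665 counts per library. Of 12 markers of other cell types, 9 were in the count table, with a summed level of 664 to 739 CPM (counts scaled to a common library total) in I/R+DMSO against 651 to 750 in I/R+Rk2. The leukocyte marker PTPRC and the endothelial markers VWF and CDH5 were listed at 0 in every library, while the macrophage-associated LYZ had 9539 to 18222 counts. I/R+DMSO replicate 1 lay far from its 3 group members on the second principal component, at 78.7 against -48.6 to -41.4, and it is left out in turn where a result rests on it.

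The share of all counts that fell on the 13 MT- genes was lower in I/R+Rk2. It was 10.6%, 10.9%, 10.9% and 11.1% in the I/R+DMSO libraries and 9.31%, 9.03%, 9.63% and 9.32% in the I/R+Rk2 libraries. The groups did not overlap, with means of 10.9% ± 0.200 and 9.32% ± 0.244 (SD, n = 4 each). The 84 nuclear rows together took 1.00%, 0.856%, 0.873% and 0.870% of counts in I/R+DMSO, and 0.866%, 0.835%, 0.816% and 0.794% in I/R+Rk2. Here the groups overlapped, since I/R+DMSO replicate 2 lay below I/R+Rk2 replicate 1, and I/R+DMSO replicate 1 was well above all others. MT- counts exceeded nuclear subunit counts 10.6, 12.7, 12.5 and 12.8 times in I/R+DMSO and 10.8, 10.8, 11.8 and 11.7 times in I/R+Rk2. That ratio overlapped between the groups with I/R+DMSO replicate 1 and did not without it. In bulk RNA, fewer transcripts per cell and fewer cells carrying them cannot be told apart, and shares of counts say nothing of the amount of RNA per cell.

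**Figure D1:**
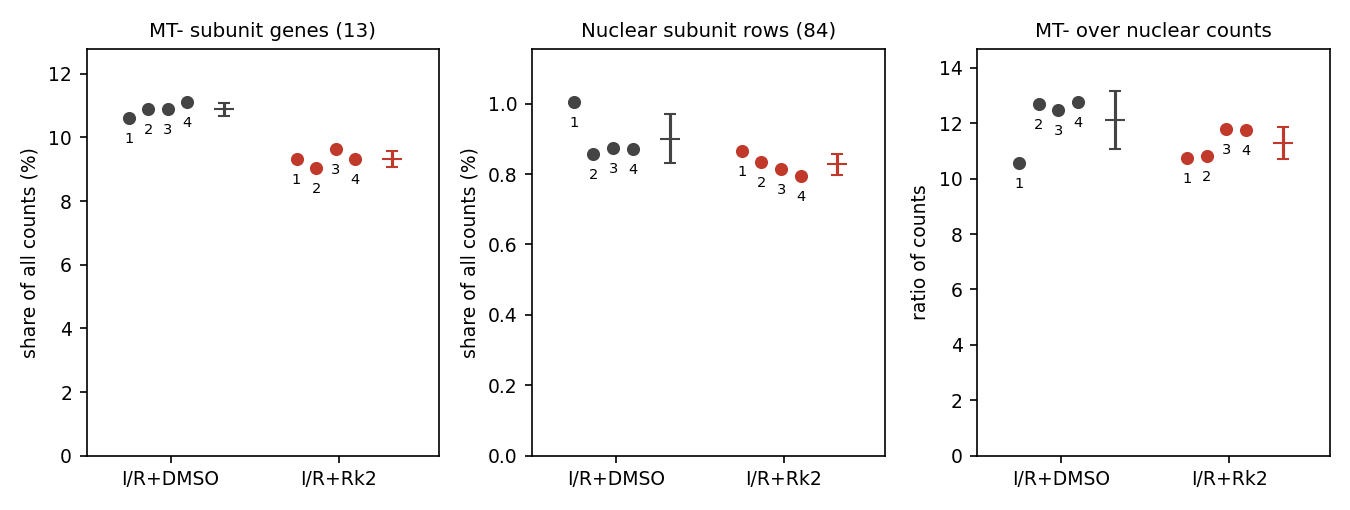
Each point is 1 library, numbered by replicate, with I/R+DMSO in grey and I/R+Rk2 in red, and the bars beside the points give the mean ± SD (n = 4). The left and middle panels show the share of all counts (%) on the 13 MT- genes and on the 84 nuclear rows, and the right panel their ratio. The MT- share separated the groups, at 10.6% to 11.1% against 9.03% to 9.63%, whereas the nuclear share and the ratio overlapped between the groups.

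Gene by gene, all 13 MT- genes had a log2 fold change (I/R+Rk2 over I/R+DMSO) below 0, from -0.36 to -0.10 with a median of -0.25, while after correction for gene length 8 of 13 were below 0 and after correction for length and GC content 10 of 13 were. MT-ND1, MT-CO2, MT-ATP8, MT-ND3 and MT-ND4L were above 0 after the length correction. Differences were tested with edgeR's quasi-likelihood test over all 12910 genes, and a gene is called when its Benjamini-Hochberg adjusted p-value is below 0.05. Of the 13 genes, 10 were called lower and none higher, against 7.24% of all tested genes called lower and 11.0% called higher. After the length correction 3 of the 13 were called lower. None changed by more than 1.5-fold, a size that 3.04% of all genes passed together with the p-value. In 10 of 13 every I/R+DMSO library exceeded every I/R+Rk2 library, which held for 12.9% of all genes (28.3% with both directions counted). The median over all genes was -0.00. Among all genes 39.8% of the calls were lower, a share that was 29.4% with library sizes alone, 51.2% with upper-quartile scaling and 49.2% after the length correction.

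Complex IV, cytochrome c oxidase, has 3 MT- subunits, and all of them fell. MT-CO3 (chrM:9207-9990), a core subunit next to the catalytic pair, had normalised CPM of 11364, 11054, 10879 and 10964 in I/R+DMSO and 8678, 8539, 8810 and 8768 in I/R+Rk2. The 4 I/R+Rk2 libraries lay close together and well below the others. Its log2 fold change was -0.35 (standard error 0.0305, adjusted p = 0.000519), a fall of 21.4%. MT-CO1 (chrM:5904-7445), which holds the site where oxygen is reduced and was the most abundant subunit by counts, had 20807, 20430, 20449 and 20895 CPM in I/R+DMSO. In I/R+Rk2 it had 17527, 16745, 17392 and 17877 CPM, again without overlap, and the log2 fold change was -0.25 (standard error 0.0322, adjusted p = 0.00245). MT-CO2, which takes electrons from cytochrome c, went from 11844 ± 367 to 10611 ± 269 CPM (SD, n = 4 each), or -0.16 on the log2 scale (adjusted p = 0.0211). The call on MT-CO2 was lost on dropping replicate 2, 3 or 4 of I/R+Rk2, with adjusted p-values of up to 0.0608, whereas MT-CO1 and MT-CO3 were called whichever library was left out.

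MT-CYB (chrM:14747-15887), the cytochrome b of complex III and its only MT- subunit, had 6530, 6900, 6838 and 6923 CPM in I/R+DMSO and 5432, 5233, 5533 and 4994 CPM in I/R+Rk2. All 4 I/R+Rk2 libraries were lower, and the log2 fold change, -0.36 (standard error 0.0421, adjusted p = 0.00164), was the most negative among the MT- genes. It was called whichever library was left out.

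Complex V has 2 MT- subunits, MT-ATP6 (chrM:8527-9207), part of its proton channel, and MT-ATP8 (chrM:8366-8572), a small membrane subunit. MT-ATP6 had 12759, 11960, 12598 and 12488 CPM in I/R+DMSO and 10127, 9774, 10367 and 10105 CPM in I/R+Rk2. The groups did not overlap and the log2 fold change was -0.30 (standard error 0.0351, adjusted p = 0.00159). MT-ATP8 had 2894, 3156, 3261 and 3111 CPM in I/R+DMSO and 2488, 2534, 2901 and 2651 CPM in I/R+Rk2. Here I/R+Rk2 replicate 3 lay just above I/R+DMSO replicate 1, and the log2 fold change of -0.23 (adjusted p = 0.0299) kept its call in 2 of 8 fits with a library left out, those that left out replicate 1 of I/R+DMSO or replicate 3 of I/R+Rk2. Both genes share 1 mRNA and overlap, so a read in the shared stretch cannot be assigned to one of them. The sequence of MT-ATP8 is shown with the 46 bases it shares with the start of MT-ATP6 (chrM:8527-8572) in capitals, and the last 60 bases of MT-ND4L (chrM:10707-10766) with the 7 bases it shares with MT-ND4, both 5′ to 3′ on the plus strand of the GRCh38 reference.
MT-ATP8: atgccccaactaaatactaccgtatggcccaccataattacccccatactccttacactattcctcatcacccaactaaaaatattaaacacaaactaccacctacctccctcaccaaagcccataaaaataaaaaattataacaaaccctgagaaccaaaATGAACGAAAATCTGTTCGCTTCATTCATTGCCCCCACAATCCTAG
MT-ND4L: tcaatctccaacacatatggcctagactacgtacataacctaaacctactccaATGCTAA

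Complex I, NADH dehydrogenase, takes 7 membrane subunits from mitochondrial DNA, of which 4 were called lower. MT-ND4 had 17715, 19276, 19275 and 19736 CPM in I/R+DMSO and 15241, 15125, 16582 and 15274 CPM in I/R+Rk2, and the log2 fold change was -0.29 (standard error 0.0476, adjusted p = 0.00614). MT-ND3 was nearly constant within I/R+Rk2, at 1965 ± 16.2 CPM against 2358 ± 139 in I/R+DMSO (SD, n = 4 each), and the log2 fold change was -0.26 (adjusted p = 0.00731). MT-ND6, which alone among the 13 lies on the opposite strand of mitochondrial DNA, had 2990, 2649, 2578 and 2633 CPM in I/R+DMSO and 2028, 1943, 2358 and 2171 CPM in I/R+Rk2. The groups of these 3 genes did not overlap, and the log2 fold change of MT-ND6 was -0.35 (standard error 0.0721, adjusted p = 0.0139). Whether reads were counted by strand is not given in the sources used here, so reads of the opposite strand in MT-ND6 cannot be told apart. MT-ND5, at -0.23 (adjusted p = 0.0330), kept its call in 1 of 8 fits with a library left out, that without I/R+DMSO replicate 1.

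The remaining 3 complex I genes were not called by edgeR. MT-ND2, at -0.14 (adjusted p = 0.0694), was called in 2 of 13 other settings, DESeq2 and upper-quartile scaling, and had groups that did not overlap, with 6543 to 7099 CPM in I/R+DMSO against 5767 to 6450 in I/R+Rk2. MT-ND1, the first protein gene of the heavy-strand transcript, had 3925, 3979, 4383 and 4105 CPM against 3842, 3750, 3995 and 3675, or -0.10 on the log2 scale (adjusted p = 0.155) with overlapping groups. MT-ND4L had 1690, 2446, 2381 and 2546 CPM in I/R+DMSO and 2089, 1970, 2104 and 1925 in I/R+Rk2. Only I/R+DMSO replicate 1 lay below the I/R+Rk2 libraries, and the log2 fold change was -0.16 (adjusted p = 0.375) with that library and -0.28 (adjusted p = 0.00655) without it. With I/R+DMSO replicate 1 left out, 11 of the 13 MT- genes were called lower and 12 did not overlap, against 15.6% of all genes.

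**Figure D2:**
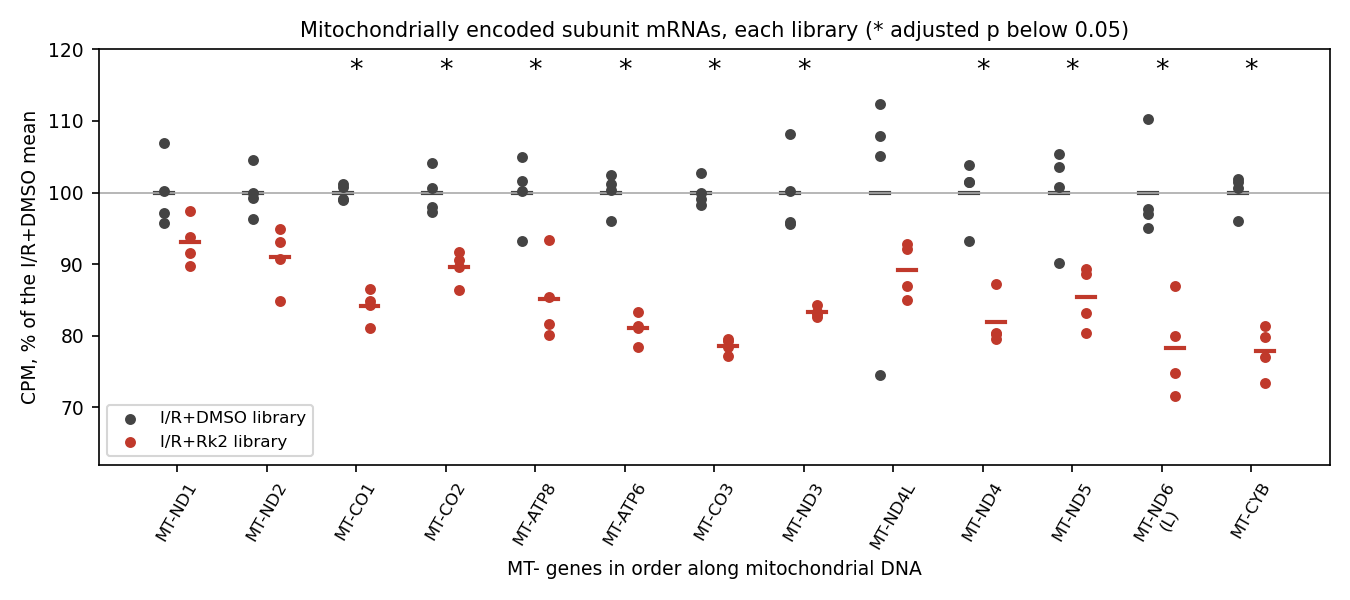
The 13 MT- genes are placed along the x axis in their order on mitochondrial DNA, with (L) marking the gene on the opposite strand. Each point is 1 library, as normalised CPM in % of the mean of the I/R+DMSO libraries (grey), with I/R+Rk2 in red, short lines for group means and a star for an adjusted p-value below 0.05. The y axis does not start at 0. All 13 red means lie below 100, 10 genes carry a star, and the low grey point of MT-ND4L is I/R+DMSO replicate 1.

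Estimated log2 fold changes along mitochondrial DNA ran from -0.36 for MT-CYB to -0.10 for MT-ND1, and whether the genes differ from each other was not tested. As a share of the MT- counts alone, MT-ND1 was higher in I/R+Rk2, at 3.72% ± 0.160 in I/R+DMSO and 4.14% ± 0.0911 in I/R+Rk2 (SD, n = 4 each), with no overlap between groups. MT-CO3 made up 10.1% ± 0.307 and 9.43% ± 0.143 of the MT- counts, and MT-CYB 6.18% ± 0.122 and 5.74% ± 0.207, both lower without overlap. For the other 10 genes the shares overlapped between the groups. MT-CO1, the gene with the largest share, held 18.8% ± 0.292 in I/R+DMSO and 18.9% ± 0.507 in I/R+Rk2. These shares are parts of one total, so a lower share of one gene raises the others, and no test was made on them.

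Levels of different genes were compared in FPKM, which divides by gene length. Among the MT- genes the mean in I/R+DMSO ran from 3129 FPKM for MT-ND5 to 15104 for MT-ATP6, with a median of 6312. MT-ATP6 (14605 to 15329 FPKM over the 4 libraries) and MT-CO2 (13960 to 14660) overlapped at the top. Below them came MT-ATP8, MT-CO3, MT-ND4 and MT-CO1, at means of 12399, 11659, 11396 and 11061 FPKM, with each overlapping the next in order. MT-ND4L, MT-ND3 and MT-ND2 followed at 6312, 5629 and 5387 FPKM, again overlapping, and then MT-CYB at 4923, MT-ND6 at 4266, MT-ND1 at 3542 and MT-ND5 at 3129, which did not overlap their neighbours. Apart from MT-ND4, the MT- genes of complex I thus stood below the MT- genes of complexes IV and V in I/R+DMSO. In I/R+Rk2 the lowest and highest MT- means were 2734 FPKM for MT-ND5 and 13114 for MT-CO2.

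Nuclear subunits were much less abundant per length. The 75 with a single FPKM row had means of 12.4 to 359 FPKM in I/R+DMSO and a median of 89.1, from NDUFV3 at the bottom to ATP5B, the catalytic beta subunit of ATP synthase, at the top. The MT- median was 70.8 times the nuclear median in I/R+DMSO and 71.5 times in I/R+Rk2. Within complexes the ratio of medians was 92.5 and 93.6 for complex I, 57.3 and 54.0 for complex III, 83.8 and 73.8 for complex IV and 83.6 and 78.6 for complex V, in I/R+DMSO and I/R+Rk2 respectively. Nuclear medians by complex in I/R+DMSO were 58.3 FPKM for complex I, 43.1 for complex II, 85.9 for complex III, 139 for complex IV and 164 for complex V.

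**Figure D3:**
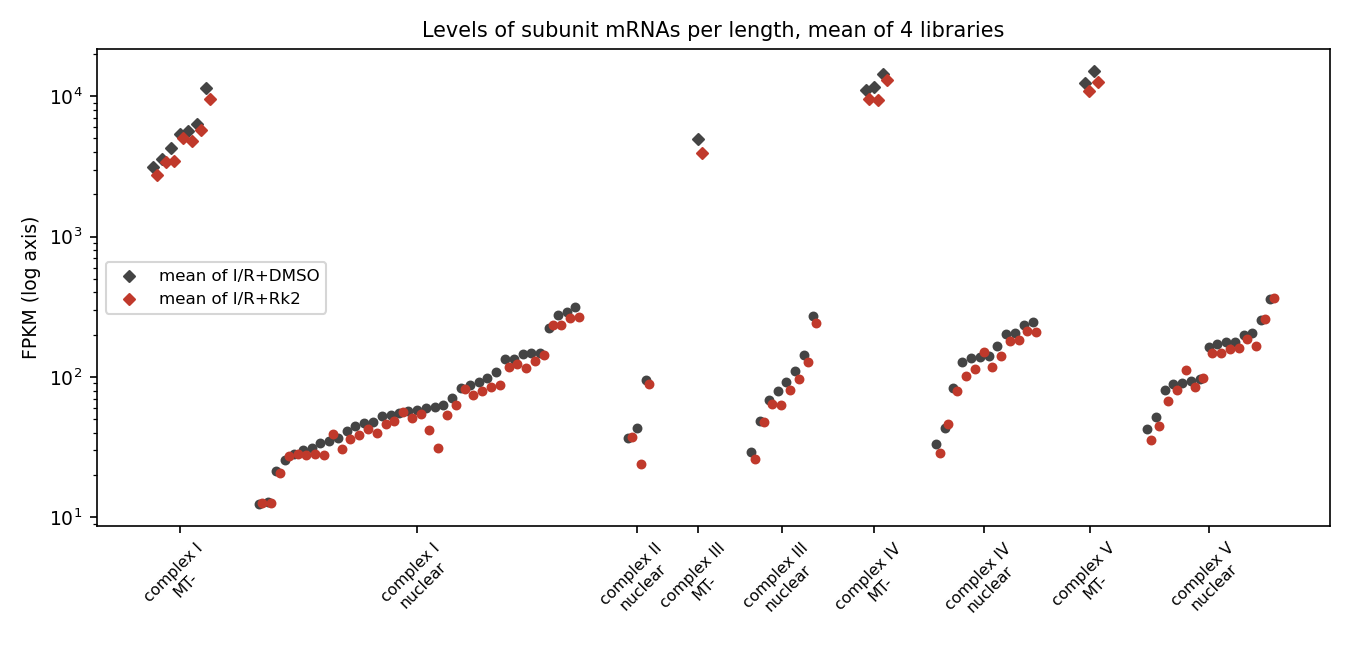
Mean FPKM of each subunit gene on a log axis, for I/R+DMSO (grey) and I/R+Rk2 (red), grouped by complex and by genome and ordered by level, with diamonds for MT- genes and circles for nuclear genes. No error bars are drawn. MT- genes lie between 2734 and 15104 FPKM and nuclear genes between 12.4 and 366, with no overlap between the genomes.

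Most nuclear subunits were also below 0, but few were called. Of the 84 nuclear rows 73 had a log2 fold change below 0, with a range of -0.48 to 0.47 and a median of -0.19, and after the length correction 54 were below 0 with a median of -0.03. In all, 8 rows were called lower, which is 9.52% against 7.24% of all tested genes, and none was called higher, with 1 at an unadjusted p-value below 0.05 in that direction and 0 calls by DESeq2 or by limma. With DESeq2 24 rows were called lower (28.6% against 10.2% of all genes), with upper-quartile scaling 17 and in each limma fit on FPKM 1. Groups did not overlap in 32 rows, all lower in I/R+Rk2, or 38.1% against 12.9% of all genes. The number of calls rested on single libraries, with 4 without I/R+DMSO replicate 2, 2 without I/R+DMSO replicate 3, 2 without I/R+Rk2 replicate 2 and 1 without either of I/R+Rk2 replicates 3 and 4. Without I/R+DMSO replicate 1, which was high for many nuclear subunits, 9 rows were called and the median was -0.13.

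The calls fell in complexes I, IV and V. In complex I, NDUFA3 (chr19:54102728-54109257), an accessory subunit, had 36.8, 29.5, 33.5 and 31.4 CPM in I/R+DMSO and 27.2, 26.7, 26.2 and 24.0 CPM in I/R+Rk2. No I/R+Rk2 library reached the I/R+DMSO range, and the log2 fold change was -0.33 (standard error 0.0795, adjusted p = 0.0240). The core subunit NDUFS3 (chr11:47565336-47584562), in the peripheral arm, went from 48.1 ± 3.86 to 40.7 ± 1.76 CPM (SD, n = 4 each), at -0.24 (adjusted p = 0.0432). NDUFAB1, the mitochondrial acyl carrier protein, was also called, at -0.32 (adjusted p = 0.0400), and is named here after its values were seen. The calls on NDUFA3, NDUFS3 and NDUFAB1 were kept in 4, 1 and 2 of 8 fits with a library left out, and all 3 were lost after the length correction, where they were at -0.10, -0.06 and -0.11 (adjusted p = 0.222, 0.437 and 0.181). The median over the 37 nuclear subunits of complex I was -0.21, and 33 of them were below 0. These 3 calls are 8.11% of the 37, against 7.24% of all genes.

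Complex V had 3 of 15 nuclear subunits called lower (20.0% against 7.24% of all genes). ATP5J2, a small membrane subunit also known as ATP5MF (chr7:99448475-99466331), had 113, 108, 104 and 101 CPM in I/R+DMSO and 95.6, 85.0, 86.5 and 89.2 CPM in I/R+Rk2, without overlap. Its log2 fold change was -0.26 (standard error 0.0530, adjusted p = 0.0144), called whichever library was left out. After the length correction it was at -0.03 (adjusted p = 0.834), and its exons overlap those of PTCD1 and of a readthrough of both, so reads may be divided among them. ATP5G3 or ATP5MC3 (chr2:175176258-175184607), a gene for subunit c of the rotating ring, fell from 222 ± 15.6 to 184 ± 13.4 CPM, and ATP5L or ATP5MG (chr11:118401154-118431496), subunit g, from 93.8 ± 9.61 to 76.8 ± 3.92 CPM (SD, n = 4 each). Their log2 fold changes were -0.27 (adjusted p = 0.0303) and -0.29 (adjusted p = 0.0358), and their calls were kept in 4 and in 2 of 8 fits with a library left out. The catalytic subunits were not called. ATP5A1 was at -0.06 (95% interval -0.16 to 0.05), above 0 on FPKM and after the length correction, and ATP5B varied within groups, with 473, 404, 606 and 637 CPM against 595, 588, 571 and 375.

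COX5B (chr2:97646040-97648383), a nuclear subunit of complex IV, was the only 1 of 12 called there (8.33% against 7.24% of all genes). It had 127, 110, 122 and 113 CPM in I/R+DMSO and 109, 85.0, 95.3 and 93.4 CPM in I/R+Rk2, and the log2 fold change was -0.30 (standard error 0.0822, adjusted p = 0.0390). I/R+Rk2 replicate 1 lay close below I/R+DMSO replicate 2, and the call was kept in 1 of 8 fits with a library left out. All 12 genes counted as nuclear subunits of complex IV were below 0, from -0.37 to -0.01. They include NDUFA4, placed in complex IV and not in complex I despite its prefix, and COX7A2L, placed there by its prefix alone. Complex III had no call by edgeR among 8 nuclear subunits, although all 8 were below 0 and 7 did not overlap between the groups (12.9% of all genes). Its core protein UQCRC1 had 258 ± 21.2 and 227 ± 5.33 CPM (SD, n = 4 each), or -0.19 on the log2 scale (adjusted p = 0.0615), and the Rieske iron-sulfur protein UQCRFS1 was at -0.20 (adjusted p = 0.0648). In 13 other settings with all libraries, UQCRFS1 was called in 6, the length correction among them (-0.27, adjusted p = 0.0450), and UQCRC1 in 2.

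Complex II, succinate dehydrogenase, which has nuclear subunits only, showed no call, and 3 of its 4 genes were above 0. SDHA, the flavoprotein, had 75.9, 75.6, 76.8 and 75.5 CPM in I/R+DMSO and 92.2, 94.5, 79.5 and 73.6 CPM in I/R+Rk2, or 0.16 on the log2 scale (adjusted p = 0.193, 95% interval -0.02 to 0.35). SDHD, a membrane anchor, was spread in I/R+Rk2, with 29.4, 62.3, 34.6 and 55.6 CPM against 33.0 to 36.6 in I/R+DMSO, so that replicates 2 and 4 were high and the other two were not. SDHB, the iron-sulfur protein, was at -0.17 (95% interval -0.32 to -0.01). For the anchor SDHC the deposited tables disagreed, with a log2 fold change of 0.07 in counts (95% interval -0.13 to 0.27) and -0.70 in FPKM, where I/R+DMSO ranged from 19.3 to 70.5.

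**Figure D4:**
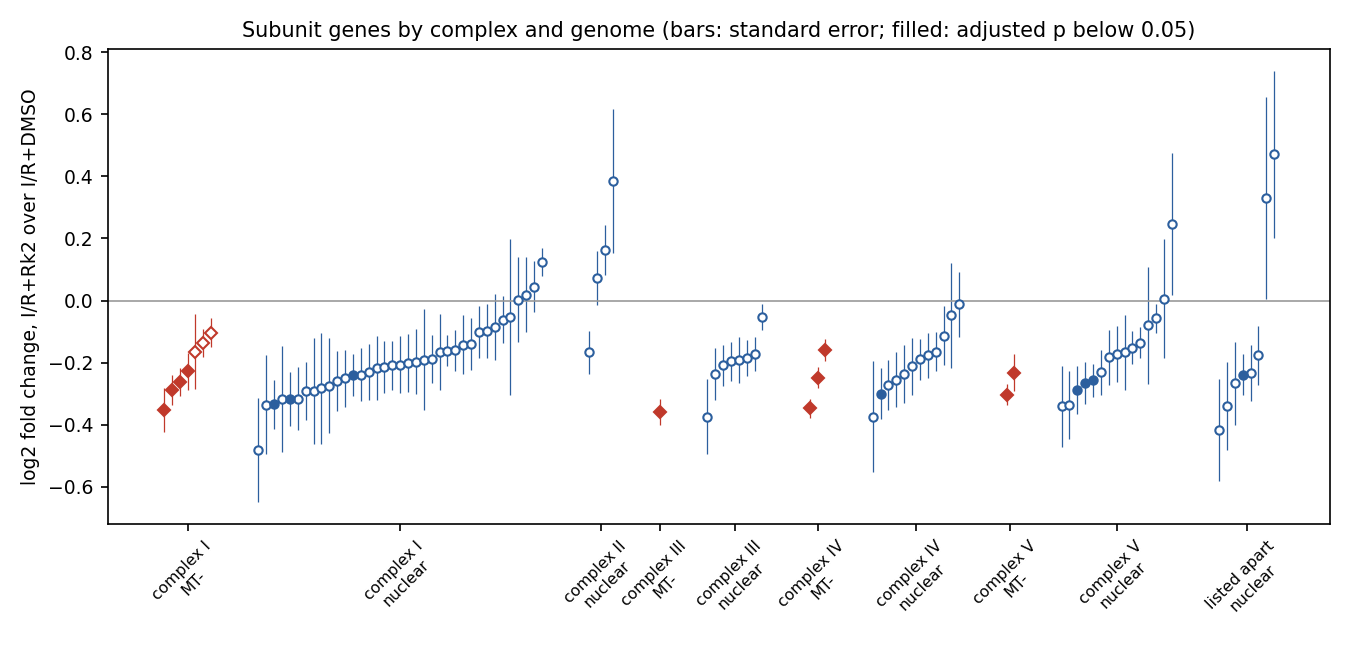
Each symbol is 1 gene, with its log2 fold change (I/R+Rk2 over I/R+DMSO) and standard error on the y axis, grouped by complex and ordered by value. Diamonds are MT- genes, circles nuclear genes, and filled symbols have an adjusted p-value below 0.05. Filled diamonds number 10 of 13 and filled circles 8 of 84, and the nuclear genes of complex II lie mostly above 0.

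Taking only 20 nuclear genes from a list of core subunits compiled for this comparison, 14 were below 0 and the median was -0.10. That list is not limited to catalytic subunits. It holds COX4I1, COX5A and COX5B, although the catalytic subunits of complex IV are MT- genes, and UQCRC1 and UQCRC2. CYC1 of complex III, which lies outside the prefixes, is not in it. In this set 2 were called lower, NDUFS3 and COX5B (10.0% against 7.24% of all genes). NDUFS1, the largest subunit of complex I, had 148, 159, 151 and 152 CPM in I/R+DMSO and 166, 157, 165 and 176 in I/R+Rk2, or 0.12 on the log2 scale (adjusted p = 0.0870), and only I/R+Rk2 replicate 2 overlapped the I/R+DMSO range. NDUFV1 was at 0.04 (turning below 0 without I/R+Rk2 replicate 3), UQCRC2 at -0.05 and COX4I1 at -0.01, none of them called. COX4I1 turned above 0 with library sizes alone, on FPKM, after the length corrections and when replicate 1 or 3 of I/R+DMSO or replicate 4 of I/R+Rk2 was dropped. NDUFS7, NDUFS8 and NDUFV2, which carry iron-sulfur clusters, were at -0.24, -0.21 and -0.21 without a call, and NDUFS8 was above 0 after the length correction. In each of these 3 genes I/R+DMSO replicate 1 was far above the other libraries of its group, for example at 59.1 CPM against 47.3 to 48.7 for NDUFS7.

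Several complex IV subunits have a second isoform with tissue-restricted expression. COX4I2, COX6A2, COX6B2, COX7A1, COX7B2 and COX8C were listed at 0 FPKM in all 8 libraries, whereas their common partners were well detected. The partners COX6A1, COX6B1, COX7A2, COX7B and COX8A were between -0.27 and -0.18 on the log2 scale, none called by edgeR, with COX6B1 nearest at an adjusted p-value of 0.0503. COX4I1, the partner of COX4I2, was at -0.01, with the sign changes given above. COX6B1 was called in 5 of 13 other settings and without I/R+DMSO replicate 1 (adjusted p = 0.0163), and COX6A1 and COX8A were above 0 after the length correction. NDUFA4L2, a paralog of NDUFA4 that is induced by hypoxia in many cells, had 11 to 38 counts per library, just inside the filter, with 0.973 ± 0.328 CPM in I/R+DMSO and 1.23 ± 0.389 in I/R+Rk2 (SD, n = 4 each, adjusted p = 0.513). That gene was not called. UQCRHL, an intronless copy of the hinge protein gene UQCRH, was called at -0.24 (adjusted p = 0.0399), but its reads may come from UQCRH, which had 202 ± 20.6 and 176 ± 9.36 CPM against 24.9 ± 1.66 and 21.1 ± 0.933 for the copy (SD, n = 4 each).

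Promoters of nuclear subunit genes are known to carry sites for the nuclear respiratory factors, and stretches around such letters are shown for 3 called genes. Of the 84 nuclear rows 65 matched a RefSeq promoter of 300 bases (GRCh38.p14), and motifs were searched on both strands. The NRF1 motif GCGCANGCG was found in 21 of 65 (32.3%) and in 8.05% of all 27305 promoters. With a further C at its end, a form searched first, it was found in 15 of 65 (23.1%) and in 6.29% of all. The ETS motif CCGGAAG, which GABP (NRF2) binds, was in 19 of 65 (29.2%) and in 10.7% of all. Promoters of mitochondrial ribosomal protein genes held the NRF1 motif in 13 of 74 (17.6%) and the ETS motif in 30 of 74 (40.5%). Among the 5 called rows with a promoter, 2 held the NRF1 motif (1 with the further C) and 3 the ETS motif. The motifs are in capitals in these stretches, which read 5′ to 3′ on the plus strand at chr19:54102756-54102815, chr2:97645998-97646057 and chr11:47578964-47579023, and in that of NDUFS3 the ETS letters occur on both strands. A match describes the sequence and does not show that a factor binds there.
NDUFA3: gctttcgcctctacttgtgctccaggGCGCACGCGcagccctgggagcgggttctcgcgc
COX5B: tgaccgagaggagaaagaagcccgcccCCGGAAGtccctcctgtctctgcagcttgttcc
NDUFS3: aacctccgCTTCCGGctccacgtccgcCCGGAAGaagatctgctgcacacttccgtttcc

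Length moved with the fold change over all genes, which touches both genomes because subunit genes are short. Gene length was derived from the ratio of counts to FPKM. Over 12898 tested genes Spearman's rho between log2 fold change and length was 0.388, over 83 nuclear rows it was 0.322 and over the 13 MT- genes 0.011. Genes within a library are not independent, and these values are descriptions. The MT- genes span 207 to 1812 bases, and the 4046 other tested genes in that range had a median of -0.11, with 10.6% called lower. In the same range the 69 nuclear rows had a median of -0.20 with 6 called (8.70%), and the 13 MT- genes a median of -0.25 with 10 called (76.9%). Abundance differs as well, and among the 44 other genes of that length range with a mean of at least 1000 CPM in I/R+DMSO, 10 were called lower (22.7%), 22 did not overlap, and the median was -0.20.

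By length class, 5 MT- genes of 1000 to 2000 bases had a median of -0.25 with 4 called, while 19 nuclear rows were at -0.17 with 0 called by edgeR and 8 at an unadjusted p-value below 0.05, and 3764 other genes were at -0.08 with 9.86% called lower. From 500 to 1000 bases the medians were -0.30 for 5 MT- genes, -0.19 for 48 nuclear rows and -0.17 for 958 other genes. Below 500 bases, in a thinly filled class, 3 MT- genes were at -0.23, 4 nuclear rows at -0.34 with 2 called, and 49 other genes at -0.26. Above 2000 bases, where no MT- gene lies, 12 nuclear rows were at -0.18 with 2 called and 8031 other genes at 0.07 with 5.37% called lower. When the fit was corrected for length, MT-CO1, MT-CO3 and MT-CYB stayed called, at -0.18 (adjusted p = 0.0147), -0.18 (adjusted p = 0.0405) and -0.25 (adjusted p = 0.0216). The MT- median was then -0.12 and the nuclear median -0.03, with 4 nuclear rows called (4.76%) and 8.57% of all genes called lower. Of the 8 nuclear calls without the correction, 2 were among these 4 (ATP5G3 and UQCRHL), and the other two were UQCRFS1 and NDUFA9, the latter named after its values were seen. The part that read length or RNA quality has in this trend was not tested.

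**Figure D5:**
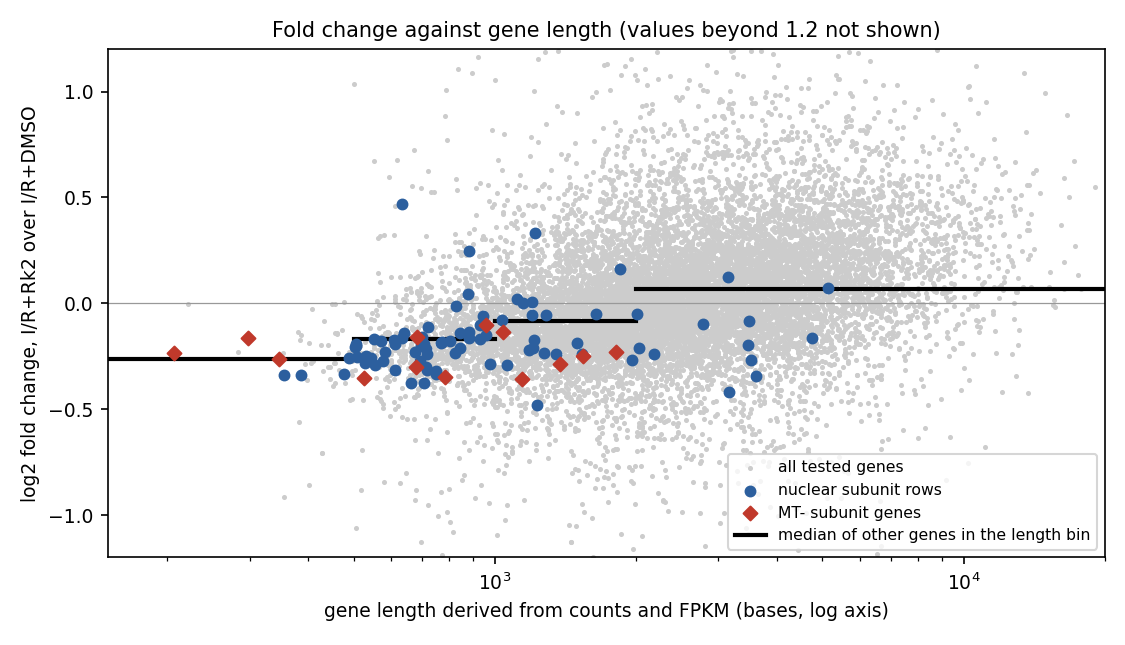
Log2 fold change (I/R+Rk2 over I/R+DMSO) against gene length in bases on a log axis, for all tested genes (grey), nuclear subunit rows (blue circles) and MT- genes (red diamonds), with black lines for the median of other genes in each length class. The black lines rise from -0.26 below 500 bases to 0.07 above 2000 bases. Red diamonds of 1000 to 2000 bases lie below the line of their class, and those below 500 bases lie around it.

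Genes that make, process and regulate the subunits were counted from lists compiled for this comparison. Of 18 genes for mitochondrial DNA transcription and replication, 5 were called lower and none higher (27.8% against 7.24% of all genes). That count was 6 with DESeq2, 2 with library sizes alone, 0 in the limma fits on FPKM and 2 to 3 with 1 library left out. TWNK, the replicative helicase, went from 93.9 ± 1.74 to 81.5 ± 1.46 CPM (SD, n = 4 each), at -0.20 (adjusted p = 0.00769), and POLRMT, the mitochondrial RNA polymerase, from 98.5 to 111 CPM over the I/R+DMSO libraries to 84.6 to 93.5 over the I/R+Rk2 libraries, at -0.26 (adjusted p = 0.0138). The third by p-value was the methyltransferase TFB1M, at -0.22 (adjusted p = 0.0372). The transcription factor TFB2M, at -0.19, and MTERF4, at -0.43, complete the 5 and are named after their values were seen, as is TFAM, which packages mitochondrial DNA and was at 0.05 (adjusted p = 0.387). TWNK and POLRMT were called whichever library was left out, TFB1M in 0 of 8 such fits, and TFB2M and MTERF4 in 1 each. After the length correction 3 of the 18 genes were called lower.

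Of 24 genes for mitochondrial RNA processing and stability, 5 were called lower and 1 higher (20.8% and 4.17%, against 7.24% and 11.0% of all genes). With DESeq2 9 were called lower, and 2 without I/R+DMSO replicate 2, I/R+Rk2 replicate 1 or I/R+Rk2 replicate 4, and 3 without replicate 3 of either group. ELAC2, which cuts precursors at the 3′ ends of tRNAs, had 139, 149, 138 and 143 CPM in I/R+DMSO and 115, 113, 108 and 102 in I/R+Rk2, at -0.38 (adjusted p = 0.00223). LRPPRC, which stabilises MT- mRNAs, was the 1 called higher, with 205, 217, 204 and 229 CPM against 257, 257, 262 and 265, at 0.28 (adjusted p = 0.00515). Its binding partner SLIRP, named after its values were seen, was called lower, at -0.28 (adjusted p = 0.0381). PTCD1 was lower at -0.19 (adjusted p = 0.0127), with the exon overlap given above. The transcript behind LRPPRC is long and that behind SLIRP short, at derived lengths of 5483 and 455 bases, and after the length correction they were at 0.13 (adjusted p = 0.0406) and -0.03 (adjusted p = 0.618).

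Mitochondrial ribosomal proteins translate the MT- mRNAs, and 23 of 78 were called lower and none higher (29.5% against 7.24% of all genes), with a median of -0.20 and 73 below 0. The count was 6 to 20 with 1 library left out, lowest without I/R+Rk2 replicate 4, and was 34 with DESeq2 and 2 to 4 in the limma fits. MRPL16, MRPS18B and MRPL12 had the smallest p-values, at -0.35, -0.26 and -0.35. In the length range of the MT- genes 21 of 68 were called (30.9%), and after the length correction 12 of 78 were called, where 8.57% of all genes were called lower, and 61 were below 0. Called assembly factors numbered 0 of 18 for complex I (4 lower at an unadjusted p-value below 0.05) and 0 of 4 for complex II (0 unadjusted). For complexes III, IV and V they numbered 1 of 7, 2 of 25 and 0 of 6 (1 unadjusted for complex V), all by edgeR. The list for complex III includes CYC1, which is a subunit and was not called. Those for complexes I and V include DMAC2 and DMAC2L, the rows ATP5SL and ATP5S that were listed apart among the members. Against 7.24% of all genes called lower, these lists are too small to show fewer or more calls. The calls were UQCC3 at -0.48, TACO1, a translational activator of MT-CO1, at -0.31, and PET117 at -0.37, all lower. They were kept in 7, 4 and 3 of 8 fits with a library left out. PET117 lost its call after the length correction (adjusted p = 0.0747). Electron carriers and coenzyme Q synthesis had 3 of 20 called lower and 1 higher (against 7.24% and 11.0% of all genes). SQOR, which feeds electrons from sulfide to coenzyme Q, was at -0.55 (adjusted p = 0.00133), COQ3 was at -0.26 and DHODH, named after its values were seen, at -0.50, while ETFDH was higher at 0.26. The calls on DHODH and ETFDH were kept in 1 of 8 fits each with a library left out, those on SQOR and COQ3 in 8, and COQ3 lost its call after the length correction (adjusted p = 0.138).

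Of 14 tested nuclear regulators of respiratory genes, 2 were called higher (14.3% against 11.0% of all genes) and none lower. HIF1A, the oxygen-regulated transcription factor subunit, had 211, 219, 213 and 231 CPM in I/R+DMSO and 290, 294, 292 and 279 in I/R+Rk2, at 0.40 (adjusted p = 0.000855). PPARGC1A, the coactivator PGC-1alpha, was low, at 1.38, 1.46, 1.87 and 0.610 CPM against 2.43, 3.29, 3.51 and 2.88, at 1.18 (adjusted p = 0.0299), and was the only one in the list past 1.5-fold. HIF1A was called whichever library was left out and PPARGC1A in 3 of 8 such fits, and after the length correction HIF1A was the 1 regulator called, at 0.33. NRF1 itself was at -0.12 (adjusted p = 0.263), named after its values were seen. Among the hepatocyte-lineage markers APOB was called higher, at 0.61, and FGB lower, at -0.27 (kept in 8 and in 1 of 8 fits with a library left out, with FGB lost after the length correction at an adjusted p-value of 0.0841), and none of the 5 tested markers of other cell types was called by edgeR, with 0 at an unadjusted p-value below 0.05.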

How the data were processed

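RNA-seq of 4 I/R+DMSO and 4 I/R+Rk2 libraries of HuH7 cells was re-analysed, with samples grouped by their deposited labels. Libraries were made with an MGIEasy kit from 250 ng of RNA, and the authors deposited raw read counts per gene for 15767 genes, without normalization, and FPKM, scaled for gene length and library size by the authors, for 19799 genes. The submitters' processing notes name FastQC 0.11.5, HISAT2 2.2.1, StringTie 1.3.3 and the build hg38, and the annotation and the counting step are not given in the sources used here. Among counted genes, 22 symbols had been turned into dates, with 0.111% of counts, and were left out. For FPKM, 17 symbols, SDHD among them, had more than 1 row and were not used there.

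The main test was edgeR 4.0.16 (robust quasi-likelihood, TMM factors, condition as the only term, R 4.3.3) over the 12910 genes reaching 10 counts in 4 or more libraries, with Benjamini-Hochberg adjustment and a threshold of 0.05. Normalised CPM use TMM factors, and 95% intervals come from that fit. Gene length was derived from counts and FPKM and scaled to the annotated lengths of the MT- genes. Coordinates, strands and exon overlaps come from GENCODE v29 (GRCh38), to which older ATP5 symbols were matched through RefSeq synonyms, and promoters from RefSeq. Alternatives were DESeq2 1.42.0, limma 3.58.1 on log2 FPKM (pseudocount 1 or 0.1, mean FPKM of 0.5 and above, or unfiltered), other scalings and filters, length corrections (loess, span 0.5), a replicate block and leaving out each library. The main fit, the filtered limma fit with pseudocount 1 and the length corrections without a block were tested on simulated data. The other settings were not. Counts are precise for MT- genes, and depth limits the rows with few counts.

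The members and gene lists were chosen with earlier results of these data known. Genes named are the MT- genes, the 6 nuclear members with the smallest p-values among those called in each direction, core subunits, isoform pairs and up to 3 called genes of each list, except that 1 gene is not reported here. Any other is said to be named after its values were seen, or marks the lowest or highest level. No member lay below the count filter, so no permutation test was run on such genes. Shares, levels and medians were not tested.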

Additional observations from a re-analysis of the deposited data

Results flagged for a closer look

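In 134 checks of a library against the other 3 of its group (2 shares, 1 ratio and the named genes), 15 showed a highest or lowest library whose gap to its neighbour exceeded Dixon's 95% critical value, as a part of the range of the group. Chance alone flags about 1 in 20 such groups. Of the 15, 10 concerned I/R+DMSO replicate 1. Its share of counts on nuclear subunits, 1.00%, was highest with a gap of 0.887 of the range, and its ratio of MT- to nuclear counts, 10.6, was lowest with a gap of 0.880. The same library was highest for NDUFS7 (0.880 of the range), NDUFS8 (0.831), NDUFV2 (0.884), UQCRFS1 (0.986), COX6B1 (0.963), NDUFA4 (0.877), UQCRH (0.882) and the ribosomal protein gene MRPL12 (0.943). No MT- gene was among these 10.

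In I/R+Rk2, replicate 3 was highest for MT-ND4, at 16582 CPM with a gap of 0.898 of the range. Replicate 1 was highest for COX6B1 (0.894) and PTCD1 (0.840). Replicate 4 was lowest for COX5A (0.866) and for ATP5B (0.894), where it had 375 CPM. The cause of these deviations was not tested.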

How the results depend on the processing

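The count of MT- genes called lower, 10 of 13, was 3 after the gene length correction and 4 after correction for length and GC content, an alternative chosen after seeing the data, while the other 9 settings that used all libraries without these corrections or a block gave 7 to 11. The median log2 fold change of the MT- genes was -0.12 and -0.16 under those corrections, and that of the nuclear rows -0.026 and -0.037. Nuclear rows called lower, 8, were 24 with DESeq2, 17 with upper-quartile scaling, 4 with library sizes alone, 4 after the length correction and 1 in each of the 3 limma fits on FPKM. The log2 ratio of the MT- share was -0.22 over all counts, -0.00786 over the subunit counts only and -0.14 over summed FPKM. MT- genes held a mean of 92.3% of the subunit counts in I/R+DMSO and 91.8% in I/R+Rk2. Because nearly all subunit counts are MT- counts, a change in them shows little in that share. The mean ratio of MT- to nuclear counts was 12.1 in I/R+DMSO and 11.3 in I/R+Rk2, with overlapping groups. With 1 library left out the MT- calls ranged from 7 to 11, the MT- median from -0.27 to -0.23, the nuclear calls from 1 to 9, the nuclear median from -0.22 to -0.13 and the log2 ratio of the MT- share from -0.24 to -0.21, with 0 calls higher in either genome. Apart from the arithmetic of the share of subunit counts, the cause of these shifts was not tested.

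With the replicate number as a block, 10 MT- genes and 13 nuclear rows were called lower, and with the block and the length correction together, chosen after seeing the data, 1 and 3, with medians of -0.12 and -0.029. Deviations from the group means correlated at 0.016, -0.0095, 0.038 and 0.085 between samples with the same number. Not every sample correlated best with its own number. The labels do not say whether equal numbers mark a shared batch, and these correlations cannot decide it.

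Of the named genes, some log2 fold changes turned sign. After the length correction they were MT-ND1 (0.032), MT-CO2 (0.026), MT-ATP8 (0.10), MT-ND3 (0.017), MT-ND4L (0.10), NDUFS8 (0.030), SDHC (-0.079), COX4I1 (0.15), ATP5A1 (0.050), ATP5C1 (0.017), COX6A1 (0.039), COX8A (0.039) and UQCRH (0.014). With the block added to that correction the same genes were at 0.037, 0.028, 0.12, 0.020, 0.15, 0.029, -0.067, 0.16, 0.049, 0.017, 0.038, 0.040 and 0.013. After length and GC correction they were MT-ND1 (0.035), MT-CO2 (0.013), MT-ND4L (0.051), ATP5J2 (0.0050), NDUFS8 (0.10), SDHC (-0.059), COX4I1 (0.20), COX5A (0.013), ATP5A1 (0.051), COX6A1 (0.067), COX8A (0.095) and UQCRH (0.0096). On FPKM, SDHC was at -0.72 (pseudocount 0.1) and -0.70 (pseudocount 1, with or without the filter), COX4I1 at 0.14 and ATP5A1 at 0.019 in all 3 fits. COX4I1 was at 0.021 with library sizes alone, and ATP5B at -0.022 with upper-quartile scaling. With 1 library left out ATP5B ranged from -0.10 to 0.14, COX4I1 from -0.092 to 0.071 and NDUFV1 from -0.025 to 0.098.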

Other observations

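The count table holds no rows for the ribosomal or transfer RNAs of mitochondrial DNA, but it holds nuclear genes of the MTRNR2L family, whose sequences resemble that of the mitochondrial large ribosomal RNA. Of these, 5 passed the filter, and they moved opposite to the MT- mRNAs. MTRNR2L12 had 182 ± 8.14 normalised CPM in I/R+DMSO and 252 ± 12.9 in I/R+Rk2, (SD, n = 4 each), and MTRNR2L8 had 123 to 147 and 195 to 221. Their log2 fold changes were 0.47 (adjusted p = 0.00113, edgeR) and 0.55 (adjusted p = 0.00204). MTRNR2L1, MTRNR2L6 and MTRNR2L10 were also called higher, at 0.60, 0.43 and 0.41, and all 5 had groups that did not overlap. Over all genes 11.0% were called higher and 28.3% did not overlap in either direction. The copies are near-identical to each other and to the mitochondrial gene, so reads cannot be assigned to one of them with certainty, and whether these counts come from nuclear or mitochondrial transcripts was not tested. These genes were chosen after their values were seen.

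Some subunits carry names outside the prefixes and were not members. CYC1, the cytochrome c1 of complex III, was at -0.10 (adjusted p = 0.303), and the ATP synthase genes USMG5, ATPIF1 and C14orf2 were at -0.20, -0.20 and -0.20, with the smallest adjusted p-value, 0.0680, for ATPIF1. Cytochrome c itself, CYCS, was at -0.05 (adjusted p = 0.538).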
